A study of Mus musculus with 6 samples.

Results

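The genes described here encode 10 surface receptors of lymphocytes and myeloid cells, most of which are known as inhibitory or checkpoint receptors: *Klrg1*, *Lilrb4a*, *Tarm1*, *Pdcd1*, *Ctla4*, *Lag3*, *Havcr2*, *Tigit*, *Cd96* and *Cd160*. They were taken by gene symbol from the table of gene counts, which holds 22554 genes. Rows were found for 9 of the 10, and *Lag3* was not analysed here. All 9 passed the filter on low counts, so all 9 were tested.

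RNA was sequenced from group 2 innate lymphoid cells (ILC2s), sorted from the lungs of wild-type BALB/cByJ mice that were 8 weeks old by the sample labels. All of the mice had received 3 intranasal doses of recombinant mouse IL-33, at 0.5 µg for each mouse, and the sorted cells were then kept for 24 h at 50000 cells per mL with 10 ng/mL of rmIL-2 and 10 ng/mL of rmIL-7. In 3 samples (replicates 35, 36 and 38) the culture also held CD200-Fc, the extracellular part of CD200 joined to an antibody Fc part, which engages the inhibitory receptor CD200R. The other 3 samples (replicates 16, 17 and 18) held an isotype control in its place. There were no untreated cells and no cells from mice without IL-33, so every level below is that of IL-33-activated ILC2s, and the sources differ on whether rmIL-33 was also in the culture.

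Inhibitory receptors dampen the signals of activating receptors on the same cell. Many of them carry in the part inside the cell an immunoreceptor tyrosine-based inhibitory motif (ITIM), a short stretch around a tyrosine that, once phosphorylated, binds phosphatases such as SHP-1, SHP-2 and SHIP-1. Others act by competing with an activating receptor for a shared ligand. ILC2s are the lymphocytes of the lung that answer IL-33 with type 2 cytokines, and KLRG1 and PD-1 are known on their surface. Of the genes named above, *Tarm1* does not suit the heading of inhibitory receptors: in the mouse, TARM1 is known as an activating receptor of myeloid cells that pairs with the Fc receptor γ chain.

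To show what these receptors share at the level of sequence, the longest complete coding sequence of each gene in GENCODE M21 (GRCm38, the same assembly as mm10) was searched in frame for the 6 codons of an ITIM. A match is a description of the sequence only, since 47.3% of the 11446 tested genes with a complete coding sequence held at least 1. Of the 9 receptors, 6 held a match (*Klrg1*, *Lilrb4a*, *Tarm1*, *Pdcd1*, *Tigit* and *Cd96*), and 3 did not (*Ctla4*, *Havcr2* and *Cd160*). The stretches below are those that lie in the known intracellular parts of KLRG1, PD-1, TIGIT and CD96, with the 6 codons in capitals and the neighbouring coding bases in lower case. The capitals of *Klrg1* lie at chr6:122282782-122282799 on the minus strand (codons 5 to 10 of 188), since KLRG1 has its intracellular part at the start of the protein. Those of *Pdcd1* lie at chr1:94039488-94039505 (minus strand, codons 223 to 228 of 288), those of *Tigit* at chr16:43649034-43649051 (minus strand, codons 226 to 231 of 241) and those of *Cd96* at chr16:46035924-46035941 (minus strand, codons 581 to 586 of 602).
Klrg1: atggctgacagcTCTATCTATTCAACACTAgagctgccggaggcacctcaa
Pdcd1: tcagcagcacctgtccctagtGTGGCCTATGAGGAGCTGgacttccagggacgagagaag
Tigit: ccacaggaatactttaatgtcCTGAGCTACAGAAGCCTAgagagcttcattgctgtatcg
Cd96: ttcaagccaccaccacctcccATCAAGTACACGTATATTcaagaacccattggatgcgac

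*Lilrb4a* encodes gp49B, which carries 2 such motifs near its end, and its neighbour *Lilr4b* encodes gp49A, a closely related protein. The ends of both coding sequences are shown because reads of the genes can be hard to tell apart, and because their reading frames part there. Nearly the same bases as in the first of these ITIMs follow in *Lilr4b*, but in another frame. Over 910 aligned coding bases, 874 (96.0%) were identical. The end of *Lilrb4a* runs from chr10:51494843 to chr10:51496244 over 3 exons on the plus strand, and the capitals mark its ITIM codons (codons 298 to 303 and 320 to 325 of 335). The end of *Lilr4b* runs from chr10:51484567 to chr10:51485760 over 2 exons of the same strand, and the capitals mark an insertion of 2 bases and the stop codon that follows it after 303 codons. Past the insertion *Lilr4b* held no ITIM codons in frame.
Lilrb4a: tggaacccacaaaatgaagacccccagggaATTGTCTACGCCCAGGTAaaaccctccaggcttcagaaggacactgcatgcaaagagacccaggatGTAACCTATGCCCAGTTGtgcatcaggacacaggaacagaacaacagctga
Lilr4b: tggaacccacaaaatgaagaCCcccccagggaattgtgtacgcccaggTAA

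The totals of the 6 libraries were 20096555 to 23239853 expected counts with isotype and 24038189 to 33321709 with CD200-Fc, so that every CD200-Fc library was the deeper. Expected counts are the authors' estimates of reads per gene, and levels are given as CPM, counts scaled to the size of the library and adjusted by TMM, a factor per library that brings most genes to the same level. No label ties a library to a mouse or a culture. The p-values therefore rest on the spread among these samples alone, and that spread may be technical. Isotype replicate 17 stood apart from the other isotype libraries on the second principal component of all genes (-30.5, against -1.86 and 18.4 for replicates 16 and 18). CD200-Fc replicate 38 lay at 26.5 on the same component, against -3.04 and -9.49 for replicates 35 and 36. Without isotype replicate 17, the 2 receptors called below had log2 fold changes of 0.39 (*Klrg1*, adjusted p = 0.0187 by edgeR) and 0.54 (*Lilrb4a*, adjusted p = 0.0212). The cells carried the RNA of ILC2s: 14 of 15 ILC2 markers had a row and summed to 10560 to 10760 CPM with isotype and 10980 to 11120 CPM with CD200-Fc. The largest part was *Il5* (4683 to 4863 CPM with isotype and 4613 to 4775 CPM with CD200-Fc), while *Thy1* lay between 10.5 and 13.4 CPM. Of these 14, *Ptprc* and *Arg1* were higher and *Il13* was lower with CD200-Fc. Among T cell markers *Cd4* was at 0 in every library and *Trac* lay at or below 0.542 CPM, and the 10 of 12 T cell markers with a row summed to 107 to 121 CPM with isotype and 120 to 132 CPM with CD200-Fc, most of it *Lat*, *Cd3g* and *Cd247*. The 2 of 5 B cell markers with a row summed to 14.6 to 19.3 and 16.5 to 20.1 CPM, the 2 of 6 eosinophil markers to 4.66 to 5.08 and 5.65 to 10.5 CPM (nearly all of it *Ccr3*), and the 6 of 7 markers of epithelium, endothelium or stroma to 43.2 to 49.6 and 52.9 to 61.6 CPM (nearly all of it *Epcam* and *Pecam1*).

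Of the 9 receptors, *Klrg1* and *Lilrb4a* were higher in CD200-Fc-treated ILC2s and none was lower at a Benjamini-Hochberg adjusted p under 0.05 in edgeR's quasi-likelihood test. The other 7 missed that threshold, and 4 of the 9 had an unadjusted p under 0.05 (17.1% of all genes did). Over all 14124 genes tested, 2.07% passed (1.48% higher and 0.595% lower), 293 genes in all. The median log2 fold change (CD200-Fc over isotype) was 0.169 over the 9 receptors, and that over all genes tested was -0.003. That median is the value of *Cd160*, which did not pass and whose 95% interval was -0.47 to 0.81. The receptors were chosen with earlier results of these data known, so the values over all genes are given for description only. In bulk RNA a change in the share of cells that express a gene and a change in the RNA of each cell cannot be told apart.

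The plot of levels sets the 9 receptors side by side for each library. To compare genes, levels were taken per kilobase of the longest protein-coding transcript. In that unit the receptors fell into 2 ranges, with *Klrg1*, *Lilrb4a* and *Pdcd1* at 81.2 CPM per kb or more in every library and the other 6 at 6.42 CPM per kb or less. The isotype means were 163 ± 6.49 CPM per kb for *Klrg1*, 100.3 ± 1.43 for *Pdcd1* and 92.4 ± 11.3 for *Lilrb4a* (SD, n = 3). *Klrg1* was above both in each isotype library, while the ranges of *Pdcd1* and *Lilrb4a* overlapped. With CD200-Fc the order of those 2 genes was the other way round, and the lowest *Lilrb4a* library (128 CPM per kb) lay above the highest *Pdcd1* library (93.0 CPM per kb). Below these came *Havcr2* (5.78 CPM per kb with isotype) and *Tigit* (5.64), whose ranges overlapped in both groups, then *Cd96* (3.18), *Cd160* (1.10), *Ctla4* (0.528) and *Tarm1* (0.304). *Ctla4* and *Tarm1* overlapped in both groups, and *Cd160* and *Ctla4* overlapped with isotype only. Among 14104 tested genes with a length, *Klrg1* stood at percentile 96.8 of CPM per kb, *Lilrb4a* at 94.3 and *Pdcd1* at 92.8, against 45.9 for *Havcr2* and 13.4 for *Tarm1*.

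**Figure D1:**
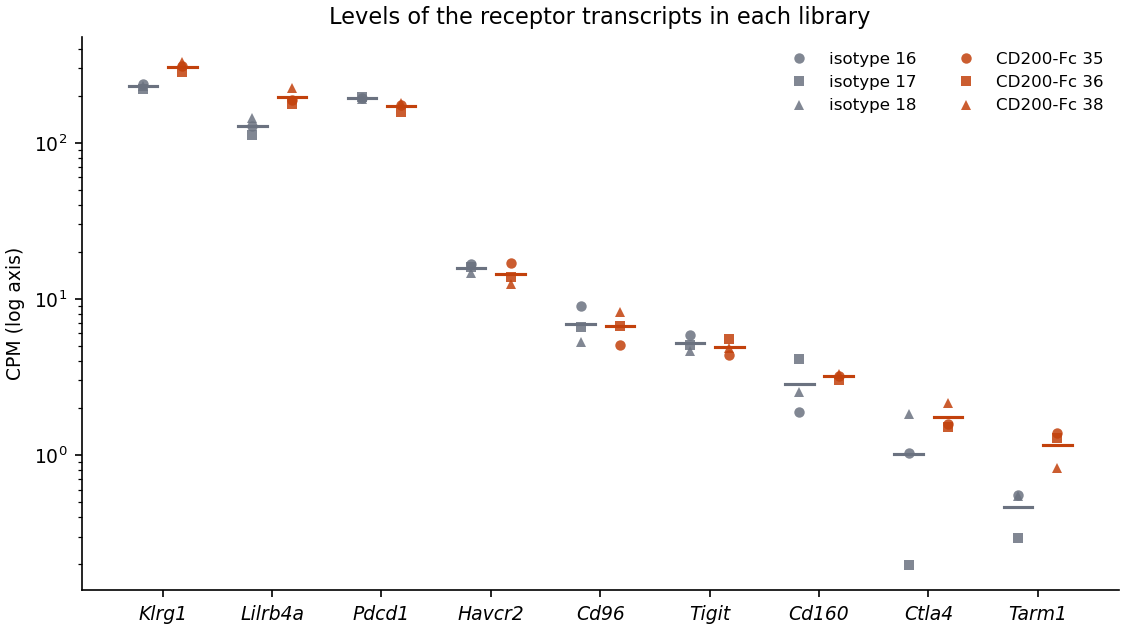
CPM of the 9 receptor transcripts in each of the 6 libraries on a log axis, with grey symbols for isotype and orange symbols for CD200-Fc, and lines at the group means. *Klrg1*, *Lilrb4a* and *Pdcd1* lie above 100 CPM in every library, and the CD200-Fc libraries of *Klrg1* and *Lilrb4a* all lie above the isotype libraries.

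*Klrg1* (chr6:122270596-122282882, minus strand, protein coding) encodes a lectin-like receptor that binds E-cadherin and other cadherins, and carries the ITIM shown above. Its levels were 239, 221 and 232 CPM in isotype replicates 16, 17 and 18, and 311, 282 and 330 CPM in CD200-Fc replicates 35, 36 and 38. All 3 CD200-Fc libraries lay above all 3 isotype libraries, and the lowest of them was replicate 36. The mean rose from 231 ± 9.18 to 308 ± 23.8 CPM (SD, n = 3), 1.33-fold. The log2 fold change was 0.41 (SE 0.06, 95% interval 0.28 to 0.55), with an adjusted p of 0.00452 by edgeR, and 78 of the 209 genes that were higher had a larger log2 fold change. These values rest on 4488 to 9298 counts in each library. *Klrg1* passed in all 6 fits that left out 1 library, with adjusted p from 0.00392 without CD200-Fc replicate 36 to 0.0444 without CD200-Fc replicate 35, and without both isotype replicate 17 and CD200-Fc replicate 36 its log2 fold change was 0.44 (adjusted p = 0.00552 by edgeR).

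Since KLRG1 is also found on natural killer cells and T cells, their markers were read beside *Klrg1*. Of 10 NK cell markers, 7 had a row, and these summed to 51.5 to 59.0 CPM with isotype and 61.6 to 89.6 CPM with CD200-Fc. Most of that sum was *Gzma*, which encodes granzyme A and which stood at 48.1, 51.8 and 44.4 CPM with isotype and at 77.4, 51.6 and 76.4 CPM with CD200-Fc (adjusted p = 0.0584 by edgeR). *Prf1*, which encodes perforin, stood at 1.37, 2.07 and 1.34 CPM against 3.26, 2.43 and 3.39 CPM (log2 fold change 0.92, adjusted p = 0.142 by edgeR), and *Itga2* at 5.86, 4.73 and 5.71 CPM against 8.81, 7.56 and 6.79 CPM (log2 fold change 0.51, adjusted p = 0.169 by edgeR). Neither passed. The groups of both did not overlap and CD200-Fc was the higher, which held for 11.6% of all genes tested. The other 4 markers with a row (*Ncr1*, *Eomes*, *Klrd1* and *Tbx21*) lay between 0 and 0.2995 CPM in every library. The part of other cells in the *Klrg1* result was not tested.

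*Lilrb4a* (chr10:51490956-51496611, plus strand, protein coding) encodes gp49B, first known as an inhibitory receptor of mast cells and myeloid cells. Its levels were 127, 112 and 143 CPM with isotype (replicates 16, 17 and 18) and 187, 177 and 225 CPM with CD200-Fc (replicates 35, 36 and 38). The groups did not overlap, and the highest library was CD200-Fc replicate 38. The mean rose from 128 ± 15.6 to 197 ± 25.3 CPM (SD, n = 3), 1.54-fold. The log2 fold change was 0.62 (SE 0.09, 95% interval 0.42 to 0.83), with an adjusted p of 0.00528 by edgeR, and 24 of the 209 genes that were higher had a larger one. *Lilrb4a* passed in all 6 fits that left out 1 library (log2 fold change 0.52 to 0.72, adjusted p = 0.00653 to 0.0281 by edgeR), and its log2 fold change was 0.61 without both isotype replicate 17 and CD200-Fc replicate 36 (adjusted p = 0.0155 by edgeR).

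The counts of *Lilrb4a* were not whole numbers (2978.72, 2273.53 and 2883.72 with isotype), since the authors' estimate shares reads that fit more than 1 gene. Of all stretches of 75 coding bases of *Lilrb4a*, 9.7% also occur in *Lilr4b*, with 17.7% for stretches of 50 bases and 4.5% for 100. At these lengths most stretches of *Lilrb4a* had no exact copy in the coding sequence of *Lilr4b*, which any differing base is enough to cause. Stretches that reach past the end of the *Lilr4b* coding sequence are among them. The lengths were not matched to the reads, and the untranslated parts were not compared. *Lilr4b* (chr10:51480632-51486703) stood at 155, 135 and 159 CPM with isotype and 233, 176 and 246 CPM with CD200-Fc, and its log2 fold change was 0.54 (SE 0.10, adjusted p = 0.0185 by edgeR). Its groups did not overlap either, but its adjusted p was 0.0667 without isotype replicate 17, 0.101 without CD200-Fc replicate 35 and 0.0703 without CD200-Fc replicate 38. *Lilrb4a* held 44.6% to 50.2% of the summed CPM of both genes, with no separation of the groups. When the counts of both genes were summed, the log2 fold change was 0.58 (adjusted p = 0.00686 by edgeR). How much of the rise of either gene came from reads shared with the other was not tested. Both genes also overlap an annotated protein-coding gene of the same strand (*Gm49339*), and *Lilrb4a* overlaps an antisense gene (*Gm40645*). The sources used here do not say whether the library kept the strand, and the part of these genes in the counts was not tested.

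Markers of the cells best known for gp49B were read beside *Lilrb4a*. Of 15 myeloid markers, 13 had a row, 8 lay under 1 CPM in every library, and the 13 summed to 28.5 to 33.7 CPM with isotype and 26.1 to 39.8 CPM with CD200-Fc, of which *H2-Ab1* made 17.5 to 20.7 CPM. *Adgre1* lay at or below 0.248 CPM and *S100a8* at or below 0.394 CPM in every library. *Lyz2* stood at 0.214, 1.03 and 1.74 CPM with isotype and at 0, 0.0608 and 9.77 CPM with CD200-Fc, so that its highest value was in CD200-Fc replicate 38, the library with the most *Lilrb4a*. The highest values of *Cd68* (6.75 CPM, against 2.69 to 4.43 in the other libraries), *Csf1r* (0.745, against 0 to 0.0994) and *Fcgr3* (0.786, against 0.118 to 0.394) were in the same library. No other myeloid marker with a row had its highest value there. *Cd14* (0 CPM, against 0.342 to 0.669), *Cd74* (2.52, against 2.58 to 5.72) and *H2-Ab1* (17.5, against 18.4 to 20.7) were lowest in CD200-Fc replicate 38. The 7 markers of mast cells or basophils summed to 96.2 to 98.9 CPM with isotype and 86.5 to 104.5 CPM with CD200-Fc, most of it *Kit* and *Tpsab1*. *Cpa3* stood at 3.38, 2.07 and 1.24 CPM against 5.47, 2.16 and 5.05 CPM (adjusted p = 0.252 by edgeR). *Fcer1a* was also highest in CD200-Fc replicate 35 (1.42 CPM, adjusted p = 0.597 by edgeR). *Mcpt4* (0.745 CPM) and *Ms4a2* (0.207 CPM), which were not tested, were highest in CD200-Fc replicate 38. *Tpsab1* went the other way (log2 fold change -0.53, adjusted p = 0.168 by edgeR). Without CD200-Fc replicate 38, the adjusted p of *Lilrb4a* was 0.0233 by edgeR. That fit keeps CD200-Fc replicate 35, where *Cpa3* was highest, so it is no test of other cells. The part of mast cells and myeloid cells in the *Lilrb4a* result was not tested.

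*Tarm1* (chr7:3486500-3502624, minus strand, protein coding) was the least abundant of the 9. It had 13, 6 and 11 counts with isotype and 35, 42 and 20 counts with CD200-Fc, or 0.556, 0.296 and 0.546 CPM against 1.38, 1.28 and 0.828 CPM. All 3 CD200-Fc libraries were above all 3 isotype libraries. Its log2 fold change was 1.30, the largest of the 9 receptors, but its 95% interval ran from 0.28 to 2.32 and the adjusted p was 0.17 by edgeR (unadjusted p = 0.0159). On the scale of log2 of the authors' normalized signal plus 1 it was 0.49 and did not pass (adjusted p = 0.156 by limma). At this depth a change of *Tarm1* was not resolved. *Gm44165*, a gene model of unsettled type on the same strand, overlaps *Tarm1*.

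**Figure D2:**
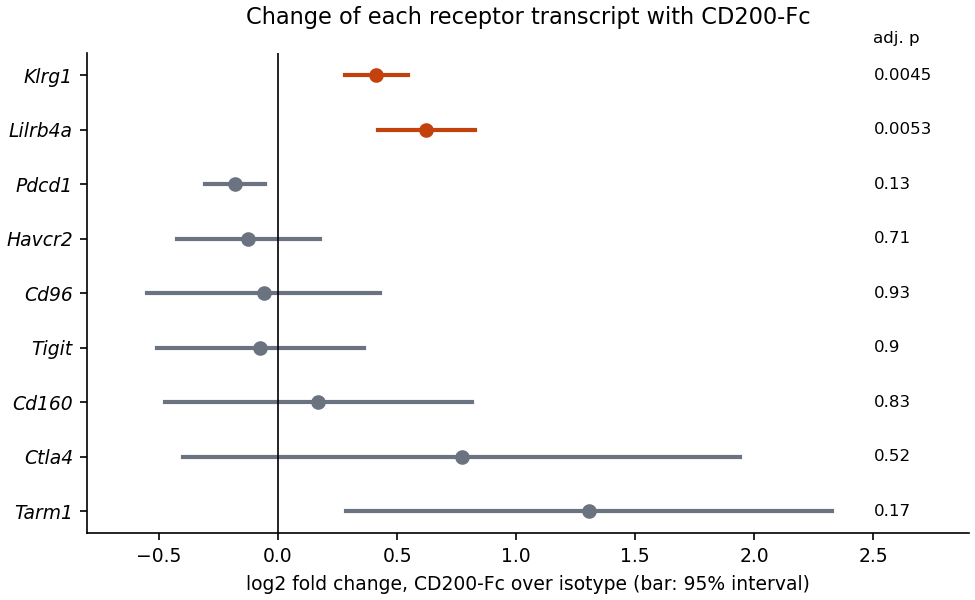
Log2 fold change of the 9 receptors, CD200-Fc over isotype (points), with 95% intervals (bars) and edgeR's adjusted p at the right, orange where the adjusted p was under 0.05. *Klrg1* at 0.41 and *Lilrb4a* at 0.62 have intervals above 0 and pass, while *Pdcd1* at -0.18 and *Tarm1* at 1.30 have intervals that leave out 0 and do not pass.

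*Pdcd1* (chr1:94038305-94052553, minus strand, protein coding) encodes PD-1, the receptor of PD-L1 and PD-L2. Its levels were 194, 196 and 190 CPM in isotype replicates 16, 17 and 18, which is the closest agreement of any of the 9 receptors (coefficient of variation 1.42%). With CD200-Fc they were 175, 158 and 180 CPM in replicates 35, 36 and 38. All 3 CD200-Fc libraries were below all 3 isotype libraries, by least for replicate 38. The means were 194 ± 2.75 and 171 ± 11.2 CPM (SD, n = 3). The log2 fold change was -0.18 (SE 0.06, 95% interval -0.31 to -0.05) and did not pass (adjusted p = 0.132 by edgeR, unadjusted p = 0.00891). DESeq2 gave it an adjusted p of 0.0479, under a rule that called 9.88% of the 8920 genes to which that tool gave an adjusted p (3.5% lower). It passed in none of the other 19 alternatives run, which included other scalings, limma and the fits without 1 library (adjusted p = 0.076 to 0.354). A *Pdcd1* level under 0.808 of that with isotype lies outside the 95% interval.

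Across the 9 receptors, 3 did not overlap between the groups and were higher with CD200-Fc (*Klrg1*, *Lilrb4a* and *Tarm1*), 1 was lower without overlap (*Pdcd1*), and 5 overlapped. Over all genes tested, 22.8% did not overlap, 11.6% being higher with CD200-Fc and 11.2% lower. For 1 gene, the exact two-sided permutation test of 3 samples against 3 can reach no p lower than 0.1, and these 4 genes had that value.

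Ratios of transcripts within 1 library do not depend on how the libraries are scaled. The ratio of *Klrg1* to *Pdcd1* CPM was 1.23, 1.13 and 1.22 with isotype and 1.78, 1.78 and 1.84 with CD200-Fc, a mean of 1.19 ± 0.055 against 1.80 ± 0.032 (SD, n = 3). This separation was fixed by the levels above, since every CD200-Fc library was higher for *Klrg1* and lower for *Pdcd1*. The ratio therefore adds no further support. The ratio of *Lilrb4a* to *Pdcd1* was 0.655, 0.573 and 0.752 with isotype and 1.07, 1.12 and 1.25 with CD200-Fc. Its lack of overlap was fixed in the same way. *Klrg1* over *Lilrb4a* overlapped between the groups (1.83 ± 0.183 and 1.57 ± 0.099). *Ptprc*, which encodes the pan-leukocyte phosphatase CD45, was itself higher with CD200-Fc (log2 fold change 0.31, adjusted p = 0.0029 by edgeR). Relative to *Ptprc*, *Klrg1* was 0.408 ± 0.013 with isotype and 0.439 ± 0.031 with CD200-Fc and the groups overlapped, whereas *Lilrb4a* was 0.225 ± 0.023 and 0.280 ± 0.033 without overlap. The exact permutation p was 0.1, the smallest possible, for the ratios that did not overlap. For the ratios over *Pdcd1* that value was fixed as well.

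**Figure D3:**
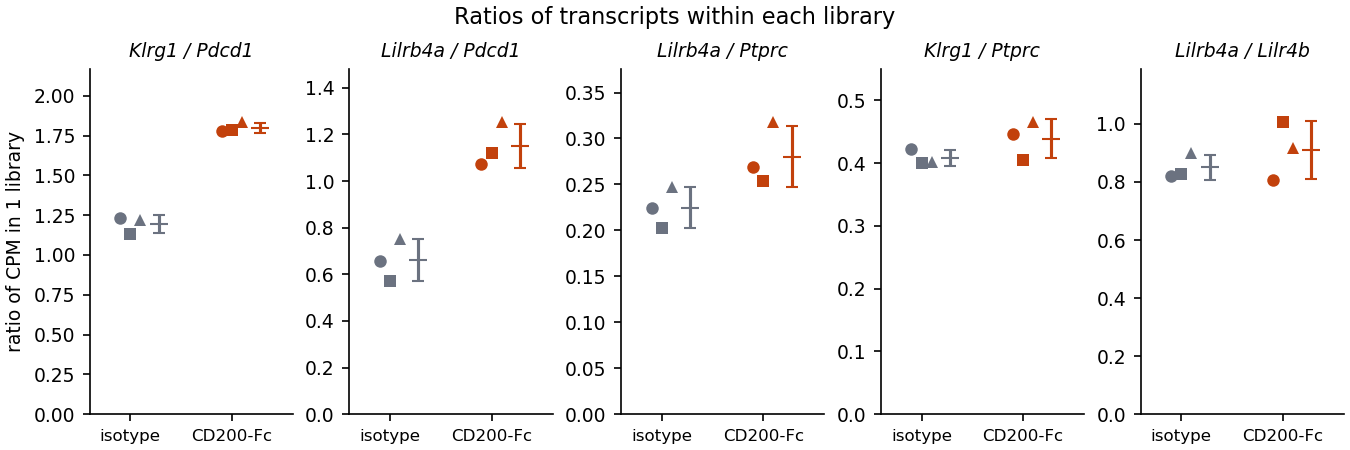
Ratio of the CPM of 2 transcripts in each library (symbols), with the mean and SD of each group beside them (n = 3), grey for isotype and orange for CD200-Fc, with a vertical axis from 0 in each panel. *Klrg1* and *Lilrb4a* over *Pdcd1* and *Lilrb4a* over *Ptprc* do not overlap between the groups, and *Klrg1* over *Ptprc* and *Lilrb4a* over *Lilr4b* do.

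*Havcr2* (chr11:46454935-46481255, plus strand, protein coding) encodes TIM-3, whose known ligands include galectin-9, HMGB1 and CEACAM1. Its levels were 16.64, 15.97 and 14.61 CPM with isotype and 17.1, 13.8 and 12.5 CPM with CD200-Fc. The groups overlapped, with the highest and the lowest values both among the CD200-Fc libraries. The log2 fold change was -0.13 (95% interval -0.43 to 0.17, adjusted p = 0.71 by edgeR), so that a change to under 0.745-fold or over 1.13-fold lies outside the interval.

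*Tigit* and *Cd96* encode receptors that share the ligand PVR (CD155) with the activating receptor CD226. *Tigit* (chr16:43648867-43664146, minus strand, protein coding) stood at 5.90, 5.03 and 4.62 CPM with isotype and at 4.37, 5.56 and 4.84 CPM with CD200-Fc, and its log2 fold change was -0.07 (95% interval -0.51 to 0.36, adjusted p = 0.896 by edgeR). *Cd96* (chr16:46035657-46120251, minus strand, protein coding) stood at 8.98, 6.55 and 5.27 CPM with isotype and at 5.07, 6.74 and 8.19 CPM with CD200-Fc, and its log2 fold change was -0.06 (95% interval -0.55 to 0.43, adjusted p = 0.925 by edgeR). Both overlapped between the groups, and *Cd96* spread within each group nearly as widely as over all 6 libraries.

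*Cd160* (chr3:96798763-96829351, minus strand, protein coding) encodes a receptor held to the membrane by a lipid anchor, which binds HVEM. It stood at 1.88, 4.09 and 2.53 CPM with isotype and at 3.23, 3.01 and 3.31 CPM with CD200-Fc. The isotype libraries spread on both sides of the CD200-Fc libraries, which lay close together. Its log2 fold change was 0.17 (95% interval -0.47 to 0.81, adjusted p = 0.829 by edgeR). *Pdzk1* overlaps this locus on the opposite strand, and its part in the counts was not tested.

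*Ctla4* (chr1:60887000-60915832, plus strand, protein coding) encodes the receptor that competes with CD28 for CD80 and CD86. It had 24, 4 and 37 counts with isotype and 40, 50 and 52 counts with CD200-Fc, or 1.03, 0.197 and 1.84 CPM against 1.57, 1.52 and 2.15 CPM. The groups overlapped, and isotype replicate 17 was far below the other 5 libraries. The log2 fold change was 0.77 (95% interval -0.40 to 1.94, adjusted p = 0.515 by edgeR) with all libraries, and over the fits without 1 library it ran from 0.29 to 1.48. A change of *Ctla4* was not resolved at this depth.

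The genes around these receptors were read in 5 lists, shown in the plot of the related lists. Over all genes tested, 2.07% passed and 17.1% had an unadjusted p under 0.05 by edgeR. Of 16 tested ligands and counter-ligands, none passed in either direction, against 2.07% of all genes, and 1 had an unadjusted p under 0.05 (DESeq2 also called none in either direction). Those of highest CPM were *Hmgb1* (684 ± 33.5 CPM with isotype and 690 ± 13.8 with CD200-Fc), *Lgals3* (501 ± 24.7 and 486 ± 11.5), which encodes galectin-3, and *Lgals9* (190.4 ± 10.8 and 190.9 ± 4.41), which encodes the TIM-3 ligand galectin-9 (SD, n = 3). For each of these named ligands the groups overlapped. Over the whole list, 1 gene was higher and 3 were lower without overlap (11.6% and 11.2% of all genes tested). The median log2 fold change of the ligand list was -0.093.

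Of 5 tested activating partners, none passed by edgeR, 2 had an unadjusted p under 0.05, and DESeq2 called 1 higher. *Icos*, the costimulatory relative of CD28 and an abundant transcript of ILC2s, stood at 816 ± 3.78 CPM with isotype and 901 ± 42.5 CPM with CD200-Fc (log2 fold change 0.14, adjusted p = 0.114 by edgeR), with no overlap. *Cd226*, the activating rival of TIGIT and CD96, stood at 62.77 ± 2.166 and 63.85 ± 5.891 CPM and overlapped. *Tnfsf14*, which encodes LIGHT, a further ligand of HVEM, stood at 31.0 ± 1.93 and 26.5 ± 1.57 CPM (adjusted p = 0.257 by edgeR).

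Among 16 tested adaptors and phosphatases, 1 was higher and 15 did not pass (2.07% of all genes passed). An unadjusted p under 0.05 was found in 4 (17.1% of all genes). None was lower, by edgeR or by DESeq2. The gene that rose was *Ptpn6*, which encodes SHP-1, a phosphatase that binds phosphorylated ITIMs. It stood at 55.9 ± 5.19 CPM with isotype and 72.4 ± 1.04 CPM with CD200-Fc (SD, n = 3), and its log2 fold change was 0.37 (SE 0.08, adjusted p = 0.029 by edgeR). *Ptpn6* passed without isotype replicate 16 (adjusted p = 0.0187), and did not without isotype replicate 17 or 18 (0.0908 and 0.105) or without CD200-Fc replicate 35, 36 or 38 (0.108, 0.0911 and 0.0918). *Dok2*, an adaptor of CD200R, stood at 359 ± 5.45 and 392 ± 3.40 CPM, a difference without overlap that did not pass (log2 fold change 0.13, adjusted p = 0.167 by edgeR). *Ppp2ca* and *Sh2d2a* did not pass (adjusted p = 0.657 and 0.309 by edgeR). The median of the list was 0.073.

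Among 20 tested genes in a list of other inhibitory receptors, 2 were higher and 18 did not pass (2.07% of all genes passed). An unadjusted p under 0.05 was found in 5 (17.1% of all genes), and again neither tool called any lower. Those higher were *Lilr4b*, described above, which lacks the ITIM codons in its last part, and *Tgfbr2*, which encodes a receptor chain for TGF-β and is a kinase, not an ITIM receptor. *Tgfbr2* stood at 211 ± 22.2 CPM with isotype and 263 ± 13.5 CPM with CD200-Fc (log2 fold change 0.32, SE 0.07, adjusted p = 0.0386 by edgeR). It passed without isotype replicate 16 (adjusted p = 0.0272), and did not without isotype replicate 17 or 18 (0.0828 and 0.0825) or CD200-Fc replicate 35, 36 or 38 (0.163, 0.135 and 0.0661). With counts thinned to the smallest library its adjusted p was 0.0509 (log2 fold change 0.31). *Cd200r1*, the receptor that CD200-Fc engages, stood at 189 ± 11.9 and 205 ± 7.45 CPM (log2 fold change 0.11, 95% interval -0.01 to 0.24, adjusted p = 0.353 by edgeR). *Il10ra* and *Cd84* did not pass (adjusted p = 0.99 and 0.321 by edgeR), and the median of the list was -0.016.

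Of 27 tested transcription factors known to control checkpoint receptor genes, 1 was higher, 1 was lower and 25 did not pass (2.07% of all genes passed). An unadjusted p under 0.05 was found in 4 (17.1% of all genes). *Prdm1*, which encodes Blimp-1, a repressor known to promote inhibitory receptors in exhausted T cells, stood at 68.6 ± 7.24 CPM with isotype and 89.3 ± 2.66 CPM with CD200-Fc (log2 fold change 0.38, SE 0.08, adjusted p = 0.0264 by edgeR). It passed without isotype replicate 18 (adjusted p = 0.0234), and did not without isotype replicate 16 or 17 (0.0594 and 0.0764) or CD200-Fc replicate 35, 36 or 38 (0.101, 0.107 and 0.0729). Nor did it pass with offsets for GC content and transcript length (log2 fold change 0.31, adjusted p = 0.0551). *Nr4a1*, an early gene of antigen receptor signalling that is also known to promote inhibitory receptors in T cells, stood at 21.6 ± 3.55 and 14.3 ± 0.733 CPM (log2 fold change -0.60, SE 0.13, adjusted p = 0.0365 by edgeR). It passed without isotype replicate 16 (adjusted p = 0.0289), and did not without isotype replicate 17 or 18 (0.078 and 0.137) or CD200-Fc replicate 35, 36 or 38 (0.104, 0.117 and 0.107). With the same offsets its log2 fold change was -0.54 (adjusted p = 0.0572), which did not pass either. *Gata3* (1122 ± 57.5 and 1072 ± 15.5 CPM), *Stat3* and *Rbpj* did not pass (adjusted p = 0.506, 0.834 and 0.139 by edgeR).

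**Figure D4:**
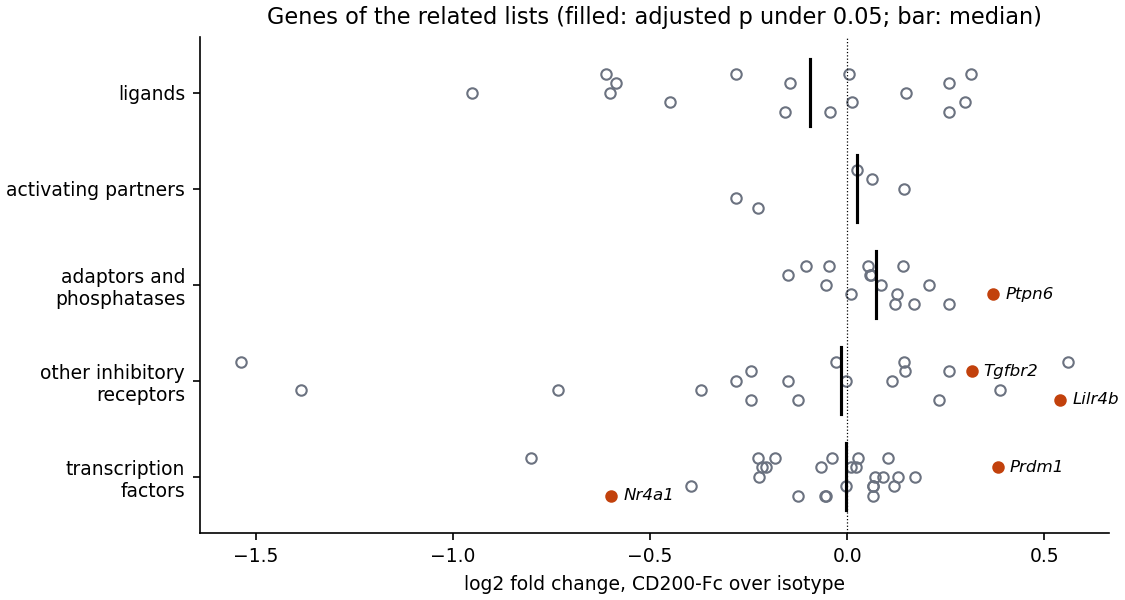
Log2 fold change, CD200-Fc over isotype, of each tested gene of the 5 related lists, with filled orange circles for genes at an adjusted p under 0.05 and a black bar at the median of each list. The 5 filled genes are *Ptpn6*, *Lilr4b*, *Tgfbr2* and *Prdm1*, which were higher, and *Nr4a1*, which was lower, and every median lies within 0.1 of 0.

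The genes whose levels ran closest to *Klrg1* and *Lilrb4a* were sought among the 10149 genes whose mean log2 CPM was 2 or more, by the root mean square difference of centred log2 CPM over the 6 libraries. This measure describes these libraries and includes the difference between the groups. For *Klrg1* they were *Epcam* (0.032), *Hltf* (0.042) and *Prkcq* (0.046). *Epcam* stood at 25.9, 24.7 and 25.3 CPM with isotype and at 34.7, 29.7 and 35.3 CPM with CD200-Fc, with the same dip in CD200-Fc replicate 36 as *Klrg1*. For *Lilrb4a* they included *Socs3* (0.077), a feedback inhibitor of cytokine signalling, and *Arhgef18* (0.094). *Lilr4b* ranked at 7 and *Klrg1* at 36 in likeness to *Lilrb4a*, whereas *Lilrb4a* ranked at 808 in likeness to *Klrg1*. CD200-Fc replicate 38 was the highest library and isotype replicate 17 the lowest for both receptors.

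The plot of adjusted p by alternative covers the fits run with other choices. *Klrg1* had a log2 fold change of 0.36 to 0.47 and *Lilrb4a* of 0.52 to 0.72 over the 20 alternatives, and both passed in each.

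**Figure D5:**
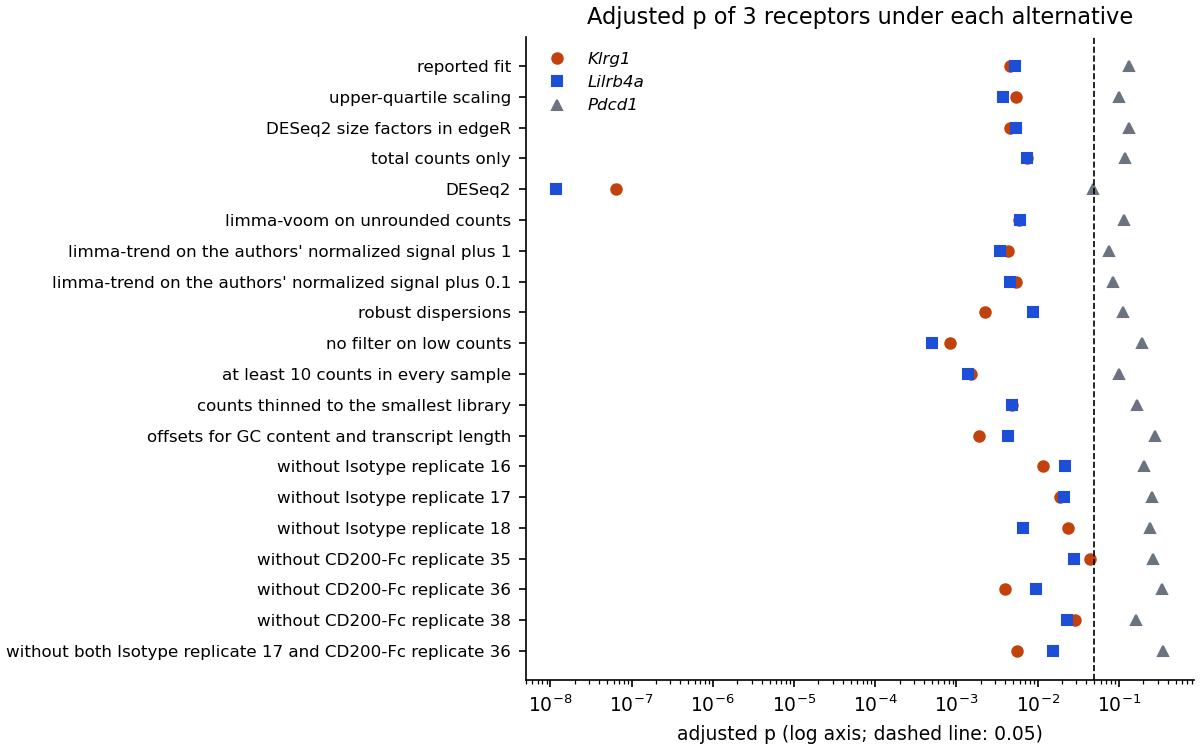
Adjusted p of *Klrg1* (orange circles), *Lilrb4a* (blue squares) and *Pdcd1* (grey triangles) in the reported fit and under each alternative scaling, test, filter and left-out library, on a log axis with a dashed line at 0.05. *Klrg1* and *Lilrb4a* lie left of the line in every row, and *Pdcd1* lies left of it only for DESeq2 (0.0479).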

How the data were processed

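Bulk RNA-sequencing of 6 libraries was used. Per the labels, reads were demultiplexed with bcl2fastq 2.17.1.14 and aligned with STAR 2.5.3a to mm10. The authors deposited expected counts, which Partek estimated per gene by expectation maximization and which carry no normalization. Which annotation release was used is not stated in those sources. The authors' normalized signal adds 1 to each expected count and scales the sum by a factor of the library, a form read from the values.

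Expected counts were rounded, and 14124 of 22554 genes kept by filterByExpr were scaled by TMM and tested with edgeR 4.0.16 (quasi-likelihood F test, R 4.3.3), with Benjamini-Hochberg adjustment over all of them. The common biological coefficient of variation was 10.8%. Alternatives used DESeq2 1.42.0, limma 3.58.1 (pseudocounts of 1 and 0.1), other scalings and filters, thinned counts, offsets for GC content and length (loess, span 0.3), and fits without each library. Summing *Lilrb4a* with *Lilr4b* and leaving out 2 libraries together were added after seeing the data. Pairs of libraries within a group differed by more than sampling noise. Figures were drawn with matplotlib 3.10.9.

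The receptors and lists were chosen with earlier results of these data known. All receptors with a row are named. From each related list the called genes (up to 6 by smallest p) and the 3 uncalled genes of highest mean CPM are named, and for each called receptor the 3 genes of nearest course. A gene that this rule names is not reported here. No protein table was used.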

Additional observations from a re-analysis of the deposited data

How the results depend on the processing

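Of 165 values of the receptors under alternatives, 159 kept their direction and their side of the threshold, 1 passed where the reported fit did not (*Pdcd1* by DESeq2, log2 fold change -0.18, adjusted p = 0.0479, which makes 1 receptor lower) and 5 changed sign. The sign changes were of *Tigit* (-0.197 to 0.033), *Cd96* (-0.23 to 0.18) and *Cd160* (-0.058 to 0.567) over the fits without 1 library or without both isotype replicate 17 and CD200-Fc replicate 36, and none of these passed. Over those fits the genes higher ran from 27 to 229 and the genes lower from 17 to 83, and 2 receptors were higher and 0 lower in each. Over the same fits, adaptors and phosphatases higher ran from 0 to 1, other inhibitory receptors higher from 0 to 3, and transcription factors higher and lower each from 0 to 1. Fits that leave out libraries have fewer samples. DESeq2 called 569 genes higher and 312 lower, 1 activating partner higher and 2 transcription factors higher. Genes lower were 163 and 144 with limma on the authors' normalized signal plus 1 and plus 0.1. With at least 10 counts in every sample, 316 were higher and 134 lower. Thinned counts gave 1 other inhibitory receptor higher (*Tgfbr2* lost its call). Offsets for GC content and length gave 53 genes lower, 2 adaptors and phosphatases higher and 0 transcription factors either way (*Prdm1* and *Nr4a1* lost their calls). Without both isotype replicate 17 and CD200-Fc replicate 36, 58 genes were higher and 20 lower, and 0 adaptors and phosphatases, 1 other inhibitory receptor and 0 transcription factors were called. Beyond fewer samples or genes, the cause was not tested. DESeq2 gave no adjusted p to *Tarm1*, *Ctla4*, *Tigit*, *Cd96* and *Cd160*, and the minimum of 10 counts dropped *Tarm1* and *Ctla4*. Depth limits *Tarm1* and *Ctla4* most, with 4 to 52 counts in each library. No paired analysis was possible because the groups share no replicate number.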
